A study of Rattus norvegicus with 18 samples.

Results

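rno-miR-92a-3p, rno-miR-19b-3p, rno-miR-25-3p and rno-miR-93-5p are microRNAs (miRNAs; rno marks the rat and is left out from here on) of the miR-17-92 cluster and its paralogous clusters, followed here across 18 rat liver small RNA libraries. They were taken by name as 4 of the 401 miRNA rows of the deposited table, and all 4 had enough counts to be tested. The libraries fall into 3 groups of 6, all from livers of rats aged 8 weeks: obese ZDF rats given colesevelam, obese ZDF rats given vehicle, and lean rats with no agent named. Every sample carries the strain label ZDF-Leprfa/Crl, so the lean rats are told from the obese ones by their group name and phenotype label alone. ZDF rats are a model of obesity and diabetes that rests on a defective leptin receptor, and colesevelam is a bile acid sequestrant, taken orally. Colesevelam against vehicle asks what the sequestrant changed in obese rats, and each obese group against lean asks what differed from lean rats.

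The miR-17-92 cluster is a single primary transcript that is processed into several mature miRNAs, and mammals carry paralogous copies of it, the miR-106a-363 cluster on the X chromosome and the miR-106b-25 cluster inside the gene of the replication helicase subunit Mcm7. A mature miRNA guides Argonaute proteins to messenger RNAs that pair with its seed, bases 2 to 8. These clusters are known for promoting cell proliferation and survival, as targets of MYC and E2F transcription factors, and for their high levels in blood cell precursors and lymphocytes. In liver they have been studied in regeneration and cancer.

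The mature sequences are shown with the seed in capitals. The seed groups the members, and their base composition is set beside their spread between libraries below. All 4 deposited sequences equal the RefSeq entries of the same name in build GRCr8.
miR-92a-3p: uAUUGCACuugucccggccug
miR-25-3p: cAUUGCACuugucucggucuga
miR-19b-3p: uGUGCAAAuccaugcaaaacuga
miR-93-5p: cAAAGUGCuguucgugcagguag
miR-92a-3p and miR-25-3p share the seed AUUGCAC although they come from different clusters. Counted from the 5′ end with miR-92a-3p as the reference, miR-25-3p differs in the 21 shared positions by U1C, C14U and C18U, and it is 1 base longer. The GC content is 57.1% in miR-92a-3p, 50% in miR-25-3p, 39.1% in miR-19b-3p and 52.2% in miR-93-5p. miR-19b-3p has the seed GUGCAAA, which it shares with miR-19a-3p, and the seed AAAGUGC of miR-93-5p is that of miR-17-5p, miR-20a-5p and miR-106b-5p.

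miR-92a-3p and miR-19b-3p each have 2 locations in the deposited table. miR-92a-3p lies at 15:103641656-103641676 on the plus strand and at X:140167113-140167133 on the minus strand, with the rat build unstated in these sources. miR-19b-3p lies beside it at 15:103641540-103641562 on the plus strand and X:140167238-140167260 on the minus strand. The mature arm is identical at both locations, so the counts of miR-92a-3p and miR-19b-3p join the clusters of chromosome 15 and of the X chromosome. RefSeq hairpins from GRCr8 show this for miR-92a-3p, in capitals within its precursors Mir92a1 (chromosome 15) and Mir92a2 (X chromosome).
Mir92a1: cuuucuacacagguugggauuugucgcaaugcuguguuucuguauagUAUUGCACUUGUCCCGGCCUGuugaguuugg
Mir92a2: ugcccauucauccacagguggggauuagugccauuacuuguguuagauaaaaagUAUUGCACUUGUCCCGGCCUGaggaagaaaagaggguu
miR-25-3p and miR-93-5p each have 1 location on the minus strand of chromosome 12, at 21364981 to 21365002 and 21365223 to 21365245. In GRCr8 the genes Mir25, Mir93 and Mir106b all lie within the bounds of Mcm7.

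The libraries held 32936 to 122881 counts in the colesevelam group, 37910 to 147313 in the vehicle group and 110352 to 881452 in the lean group. A count of 0 allows up to 84.3 CPM (the usual level relative to library size, TMM-scaled here) in the shallowest library and 3.92 CPM in the deepest, for counting error only. The hepatocyte miRNA miR-122-5p lay between 17783 and 81392 CPM in all libraries, as a check of the labelled tissue. The labels do not tie each library to its own rat, and 5 label numbers are shared by 2 libraries of a group, so p-values measure the spread between libraries, which may be technical in part. Lean 6 stood apart, with the lowest miR-92a-3p, miR-25-3p and miR-93-5p levels and the highest miR-19b-3p level of all 18 libraries, so results that rest on it are given with and without it. In bulk liver, fewer cells of a type and less RNA per cell cannot be told apart.

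miR-92a-3p, the seed relative of miR-25-3p at the 3′ end of the miR-17-92 cluster, was by far the most abundant member, with 86631 counts over all libraries or 3.13% of all counts, rank 12 of the 401 rows. It had 18783 (lowest), 30418 (median) and 45357 CPM (highest) in colesevelam libraries, 20879, 43549 and 63979 CPM in vehicle libraries, and 11491, 36240 and 70507 CPM in lean libraries. The 3 groups overlapped widely, and the lean group held both the lowest library, lean 6, and the highest, lean 1. Counts per library ran from 1053 to 19415, so counting error alone would give an SD of 0.03 on the log2 scale, against an SD within groups of 0.74.

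miR-25-3p, the most abundant product of the miR-106b-25 cluster here, had 1191, 1894 and 2196 CPM (lowest, median and highest) in colesevelam libraries, 1513, 1669 and 2203 CPM in vehicle libraries, and 1033, 1419 and 1620 CPM in lean libraries. It was the steadiest member, with an SD within groups of 0.26 (log2), rank 108 of the 112 tested miRNAs from the most to the least variable. Vehicle 3 lay above the other vehicle libraries, and lean 6 was the lowest library of all.

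miR-93-5p, which shares its seed with miR-17-5p and lies next to miR-25 in the cluster, had 267, 328 and 559 CPM (lowest, median and highest) in colesevelam libraries, 238, 419 and 734 CPM in vehicle libraries, and 176, 368 and 478 CPM in lean libraries. Its counts were 14 to 32 per library in the colesevelam group, 12 to 64 in the vehicle group and 30 to 293 in the lean group. Counting error alone would give an SD of 0.28 (log2), against 0.49 within groups. The groups overlapped, and lean 6 again held the lowest level.

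miR-19b-3p, known as an oncogenic product of its cluster in mouse lymphomas, had 75.4, 208 and 232 CPM (lowest, median and highest) in colesevelam libraries, 152, 248 and 377 CPM in vehicle libraries, and 123, 319 and 1297 CPM in lean libraries. Lean 6 held the highest value, and the next highest lean library had 462 CPM. The groups overlapped. The colesevelam libraries rested on 4 to 22 counts of miR-19b-3p, the vehicle libraries on 7 to 56 and the lean libraries on 24 to 353, and counting error alone would give an SD of 0.40 (log2) against 0.83 within groups.

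**Figure D1:**
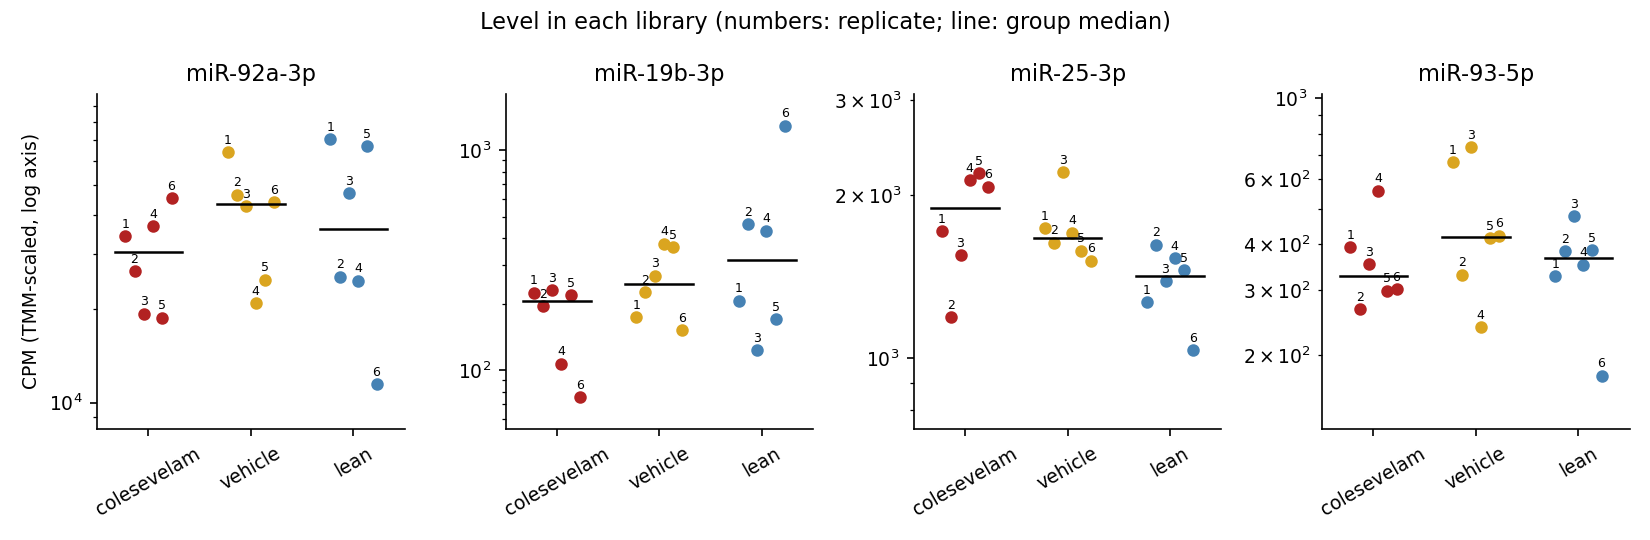
Level of each member in every library, in CPM on a log axis, with colesevelam, vehicle and lean from left to right. Points are libraries with their replicate numbers and lines are group medians; lean 6 is the highest library for miR-19b-3p, at 1297 CPM, and the lowest for miR-92a-3p, at 11491 CPM.

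The order of the levels was stable at the top and not at the bottom. miR-92a-3p exceeded miR-25-3p, and miR-25-3p exceeded miR-93-5p, in 18 of 18 libraries. miR-93-5p exceeded miR-19b-3p in 6 of 6 colesevelam, 5 of 6 vehicle and 3 of 6 lean libraries, so their order was not stable in lean livers. The difference between their levels was not tested. The values are counts per mature miRNA, and the members differ little in length, from 21 to 23 bases.

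The products of the same cluster did not have equal counts. Counts of different miRNAs were not calibrated here, so their amounts in liver were not compared. The ratio of miR-92a-3p to miR-19b-3p, which lie side by side in their precursor transcripts, had a median of 144 in colesevelam libraries, 182 in vehicle libraries and 199 in lean libraries. It ran from 83.4 to 601 in colesevelam libraries, from 55.4 to 368 in vehicle libraries and from 8.86 in lean 6 to 392 in lean libraries. The ratio of miR-25-3p to miR-93-5p was much steadier, with medians of 4.42 in colesevelam libraries, 3.69 in vehicle libraries and 4.05 in lean libraries. The lowest of all libraries was 2.59 and the highest 7.33.

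Over all groups, miR-19b-3p and miR-92a-3p varied more between libraries than miR-93-5p and miR-25-3p, though not in every group or setting. The SD within groups of miR-19b-3p (0.83, log2) had rank 9 and that of miR-92a-3p (0.74) rank 19 among the 112 tested miRNAs, whose median was 0.50. miR-93-5p, with 0.49, had rank 60. Without lean 6 the SD was 0.64 for miR-19b-3p, 0.62 for miR-92a-3p, 0.43 for miR-93-5p and 0.24 for miR-25-3p. Their ranks were then 20, 25, 64 and 108 in that order. In the vehicle group alone miR-93-5p, with an SD of 0.59, exceeded miR-19b-3p, with 0.51. The GC slope of a library is a measure of how high its GC-rich miRNAs stood. After regression on this slope, the SD was 0.58 for miR-19b-3p, 0.39 for miR-92a-3p, 0.42 for miR-93-5p and 0.27 for miR-25-3p. Within each group miR-92a-3p and miR-19b-3p moved against each other, with a Pearson r between their log2 deviations from the group mean of -0.80 in the colesevelam, -0.86 in the vehicle and -0.92 in the lean group. Over all 18 libraries the r was -0.89 and Spearman's rho was -0.86, and without lean 6 the r was -0.82. With the GC slope regressed out of both members, the r over 18 libraries was -0.73. miR-25-3p and miR-93-5p varied together with an r of 0.54 over 18 libraries, with 0.41 without lean 6, and with 0.61 with the GC slope regressed out. These correlations are descriptions, since both values come from the same library and share its depth and composition.

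Base composition of the miRNAs was compared with this spread. For each library a GC slope was computed, the change of log2 CPM relative to the mean of all libraries per 10 points of GC content, over the tested miRNAs other than the members. A high slope means that GC-rich miRNAs were high in that library. The slope averaged -0.06 ± 0.24 in colesevelam libraries, 0.12 ± 0.28 in vehicle libraries and -0.06 ± 0.24 in lean libraries (SD, n = 6 each). It did not differ detectably between groups by a two-sided exact permutation test: p was 0.238 for colesevelam against vehicle, 0.232 for vehicle against lean and 0.957 for colesevelam against lean, or 0.357, 0.357 and 0.957 after Benjamini-Hochberg adjustment over the 3.

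miR-92a-3p, the GC-richest member, rose with the GC slope and miR-19b-3p, the GC-poorest, fell with it. Between the deviations from group means over 18 libraries, miR-92a-3p had a Pearson r of 0.86 (permutation p = 2.00e-05, adjusted over all 112 miRNAs 0.000420) and a Spearman rho of 0.85 (permutation p = 0.000140, adjusted 0.00160). The slope accounted for 74.6% of its variance within groups. miR-19b-3p had an r of -0.73 (permutation p = 0.000520, adjusted 0.00220) and a rho of -0.75 (permutation p = 0.00113, adjusted 0.00436), and the slope accounted for 54.0% of its variance.

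miR-25-3p shares its seed with miR-92a-3p and has 50% GC. It showed no detectable relation, with an r of 0.06 (permutation p = 0.812, adjusted 0.850) and a rho of 0.05 (permutation p = 0.850, adjusted 0.858). Among all tested miRNAs with 50% GC, r ran from -0.25 to 0.93. miR-93-5p missed the threshold narrowly, with an r of 0.56 (permutation p = 0.0282, adjusted 0.0501) and a rho of 0.49 (permutation p = 0.0611, adjusted 0.0977). Without the 2 libraries farthest from the median slope, vehicle 4 and lean 4, r was 0.86 for miR-92a-3p, -0.75 for miR-19b-3p, 0.14 for miR-25-3p and 0.47 for miR-93-5p. With the library total regressed out of both measures, r was 0.81, -0.73, 0.22 and 0.61 in the same order. Scaled by library totals in place of TMM, the r of miR-25-3p was 0.41 (permutation test, adjusted p = 0.159).

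**Figure D2:**
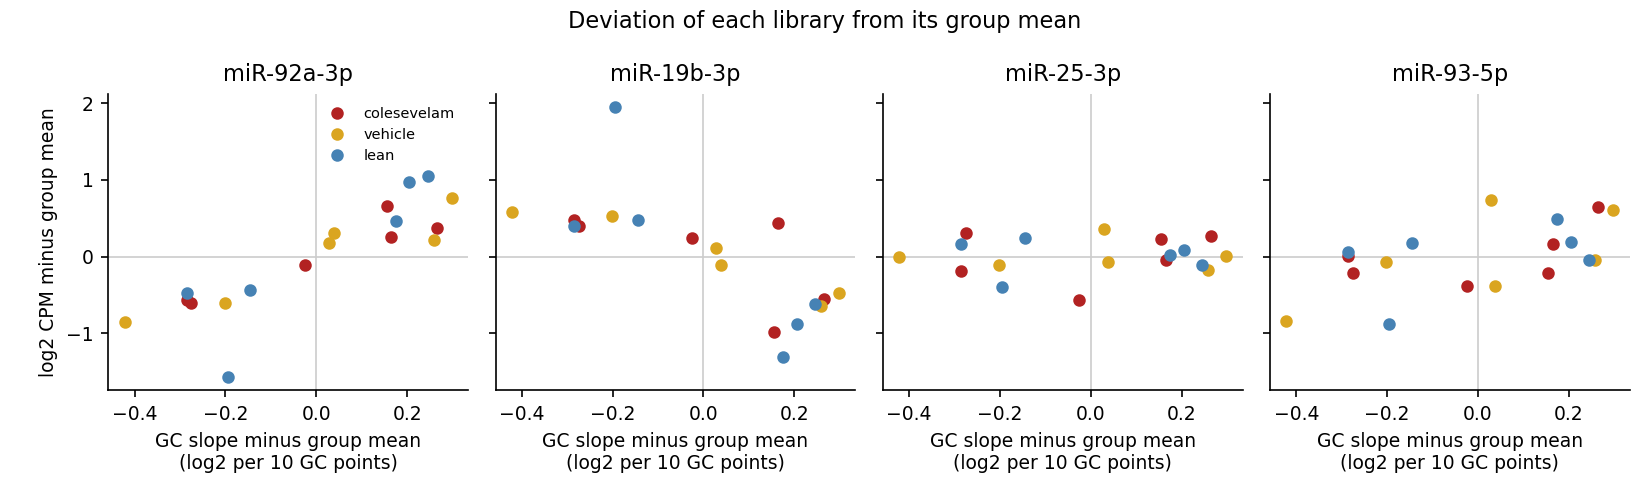
Deviation of each member's log2 CPM from its group mean against the deviation of the library's GC slope from its group mean, 1 panel a member, 1 point a library, coloured by group. miR-92a-3p rises with the slope (r = 0.86), miR-19b-3p falls with it (r = -0.73), and miR-25-3p shows no trend (r = 0.06).

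Within single groups the relation had the same sign for miR-92a-3p in all 3, with an r of 0.94 in colesevelam (exact permutation p = 0.0111), 0.94 in vehicle (exact p = 0.00694) and 0.88 in lean livers (exact p = 0.0361), or 0.0444, 0.0444 and 0.108 after adjustment over 12 such tests. miR-19b-3p had an r of -0.65 in colesevelam (exact permutation p = 0.160), -0.95 in vehicle (exact p = 0.00972) and -0.81 in lean livers (exact p = 0.0736), or 0.276, 0.0444 and 0.177 after that adjustment. In the same order of groups, Spearman's rho of miR-92a-3p was 0.77, 0.94 and 0.94 (exact permutation p = 0.103, 0.0167 and 0.0167, unadjusted). That of miR-19b-3p was -0.54, -0.94 and -0.60 (exact permutation p = 0.297, 0.0167 and 0.242, unadjusted). For miR-93-5p the r was 0.53 in colesevelam, 0.66 in vehicle and 0.45 in lean livers, and for miR-25-3p it was 0.19, -0.03 and -0.03 in the same order, none of these past the threshold.

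The relation was not particular to the members. Of all 112 tested miRNAs, 55.4% passed the same threshold, 34 with a positive and 28 with a negative r. Among the 42 miRNAs with at least 50% GC, 36 had a positive r, and among the 20 with less than 40% GC, 16 had a negative r. The slope was computed from these same miRNAs, apart from the members and the miRNA in question, so this tally follows in part from its definition and is given as a description. miR-92a-3p had the rank 6 of 112 from the most positive r, miR-93-5p 35, miR-25-3p 57 and miR-19b-3p 101. GC content did not fix the sign for every miRNA: miR-340-5p, with 27.3% GC, had an r of 0.76, and miR-27a-3p, with 52.4%, had -0.69, both chosen after their values were seen. What made the slope differ between libraries was not tested.

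**Figure D3:**
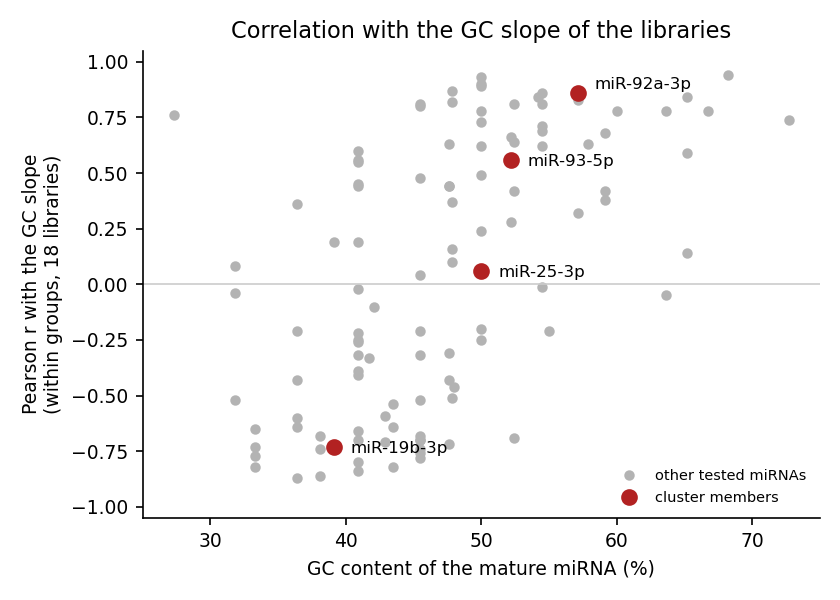
Pearson r of each tested miRNA with the GC slope of the libraries, over 18 libraries, against its GC content in percent. The members are in red; miR-92a-3p (57.1% GC) lies at 0.86 and miR-19b-3p (39.1% GC) at -0.73.

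Apart from the members themselves, the miRNAs whose log2 deviations were most like those of a member over 18 libraries were, for miR-92a-3p, miR-181b-5p (r = 0.91), miR-351-5p (0.91) and miR-125b-2-3p (0.90). For miR-19b-3p they were miR-30e-5p (0.86), miR-195-5p (0.84) and miR-802-3p (0.78). The closest to miR-25-3p reached only 0.61, for miR-28-3p, followed by miR-191a-5p (0.58) and let-7i-5p (0.56). For miR-93-5p they were miR-676 (0.79), miR-103-3p (0.74) and miR-181b-5p (0.72). These are descriptions over libraries that share depth and composition.

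In colesevelam against vehicle livers, none of the 4 members passed the threshold, and the groups of every member overlapped, where those of 5.36% of all tested miRNAs did not. With edgeR's quasi-likelihood test and Benjamini-Hochberg adjustment over all 112 miRNAs, 10.7% of the tested miRNAs were called at an adjusted p under 0.05. No member had an unadjusted p under 0.05 either, and DESeq2 and limma-voom called none. miR-92a-3p averaged 30226 ± 10533 CPM in colesevelam and 40575 ± 15737 CPM in vehicle livers (SD, n = 6 each), which is -0.43 ± 0.36 as log2 fold change (SE; edgeR adjusted p = 0.583). miR-19b-3p averaged 176 ± 67.4 CPM in colesevelam and 261 ± 94.5 CPM in vehicle livers (log2 fold change -0.55 ± 0.51, edgeR adjusted p = 0.619). miR-25-3p had 1809 ± 396 CPM in colesevelam and 1729 ± 246 CPM in vehicle livers (log2 fold change 0.07 ± 0.18, edgeR adjusted p = 0.918), the narrowest interval of the 4, from -0.31 to 0.45. miR-93-5p had 362 ± 106 CPM in colesevelam and 469 ± 194 CPM in vehicle livers (log2 fold change -0.37 ± 0.30, edgeR adjusted p = 0.567). The median log2 fold change was -0.40 over the members and -0.01 over all tested miRNAs.

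In vehicle against lean livers, again none of the members passed, where 6.25% of all tested miRNAs did, and no member had an unadjusted p under 0.05. DESeq2 and limma-voom called none, and all groups overlapped, as against 2.68% of the tested miRNAs with separate groups. miR-92a-3p averaged 40575 ± 15737 CPM in vehicle and 41016 ± 24328 CPM in lean livers, a log2 fold change of -0.02 with a 95% interval from -0.76 to 0.73 (edgeR adjusted p = 0.999). miR-19b-3p averaged 261 ± 94.5 CPM in vehicle and 448 ± 439 CPM in lean livers (log2 fold change -0.77 ± 0.46, edgeR adjusted p = 0.396), and this difference shrank to -0.11 without lean 6. miR-25-3p had 1729 ± 246 CPM in vehicle and 1381 ± 209 CPM in lean livers (log2 fold change 0.32 ± 0.18, edgeR adjusted p = 0.383). miR-93-5p had 469 ± 194 CPM in vehicle and 350 ± 99.5 CPM in lean livers (log2 fold change 0.40 ± 0.29, edgeR adjusted p = 0.492). The median was 0.15 over the members and 0.01 over all tested miRNAs.

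In colesevelam against lean livers, miR-19b-3p lay just outside the threshold and no member was called by edgeR, against 21.4% of all tested miRNAs. All 4 members overlapped between the groups, which 8.04% of the tested miRNAs did not. miR-19b-3p averaged 176 ± 67.4 CPM in colesevelam and 448 ± 439 CPM in lean livers, -1.32 ± 0.48 on the log2 scale, and 2.49-fold lower, with an edgeR adjusted p of 0.0513. DESeq2's Wald test called it (-1.36, adjusted p = 0.0316) and limma-voom did not; DESeq2's test called 29.5% of all tested miRNAs in this comparison. Without lean 6 the log2 fold change was -0.66, and without lean 1, lean 3 or lean 5 it was -1.53, -1.50 or -1.55 and past the threshold (edgeR adjusted p = 0.0339, 0.0199 and 0.0274). miR-25-3p had 1809 ± 396 CPM in colesevelam and 1381 ± 209 CPM in lean livers (log2 fold change 0.39 ± 0.18, edgeR adjusted p = 0.113). These 2 members were those with an unadjusted p under 0.05, as were 39.3% of all tested miRNAs. miR-92a-3p stood at -0.44 ± 0.36 (log2) (edgeR adjusted p = 0.409) and miR-93-5p of 0.02 ± 0.29 (edgeR adjusted p = 0.975), and the median was -0.21 over the members and -0.08 over all tested miRNAs.

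**Figure D4:**
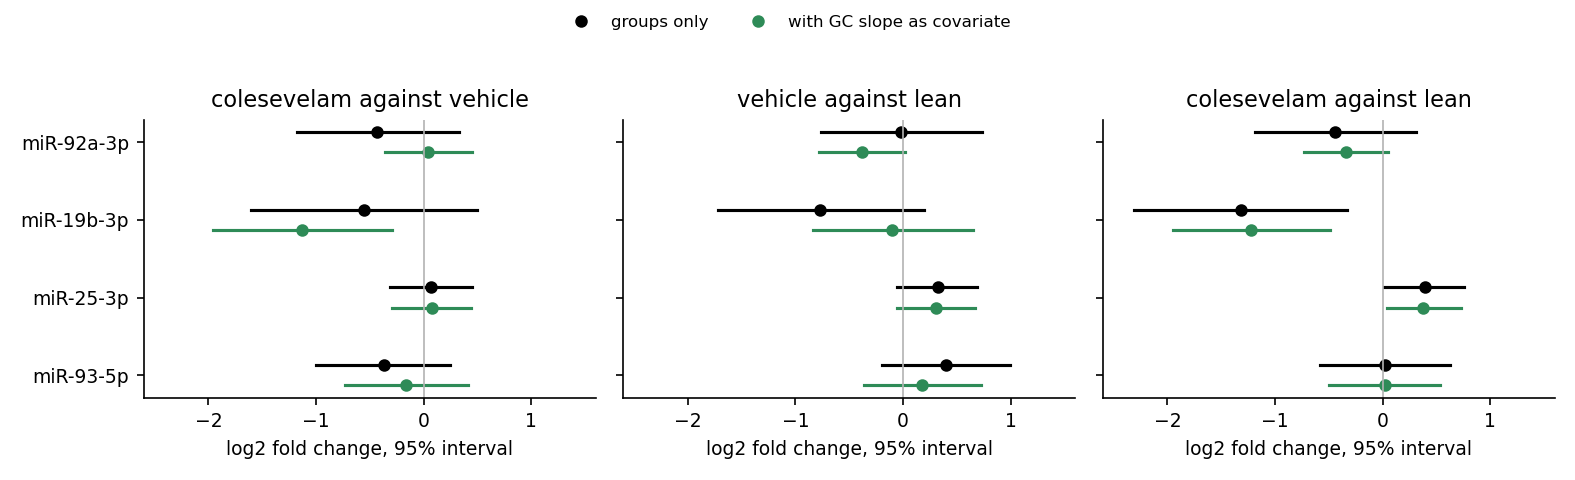
Log2 fold change of each member with its 95% interval in the 3 comparisons, from edgeR, with the groups alone (black) and with the GC slope of each library as a covariate (green). With the covariate the intervals of miR-92a-3p narrow and miR-19b-3p in colesevelam against lean livers lies at -1.22.

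With the GC slope as a covariate in the edgeR fit, the SE of miR-92a-3p fell to 0.20 for colesevelam against vehicle, against 0.36 with the groups alone, and its log2 fold change was 0.04 (edgeR adjusted p = 0.892), where 17.9% of all tested miRNAs were called. miR-19b-3p had -1.13 ± 0.41 in that comparison (edgeR adjusted p = 0.0503). In vehicle against lean livers, where 14.3% of all were called, the covariate moved miR-19b-3p to -0.10 (edgeR adjusted p = 0.871) and miR-92a-3p to -0.38 (edgeR adjusted p = 0.235). In colesevelam against lean livers miR-19b-3p was then called, at -1.22 ± 0.35 (edgeR adjusted p = 0.00859), where 38.4% of all tested miRNAs were called. miR-25-3p and miR-93-5p were called in none of the 3 comparisons with this covariate. When lean 6 was also left out, miR-19b-3p was called in colesevelam against vehicle (-1.0, edgeR adjusted p = 0.00961) and in colesevelam against lean livers (-0.74, edgeR adjusted p = 0.0170). miR-92a-3p was then called in vehicle against lean (-0.51, edgeR adjusted p = 0.0159) and in colesevelam against lean livers (-0.50, edgeR adjusted p = 0.00732). Of all tested miRNAs, 25.9% were called in that setting for colesevelam against vehicle, 21.4% for vehicle against lean and 43.8% for colesevelam against lean. Leaving out lean 6 here was chosen after its values were seen. These calls do not hold in the edgeR fit reported above, with the groups alone over all 18 libraries. With lean 6 kept and the groups alone, DESeq2's Wald test called miR-19b-3p in colesevelam against lean livers. So did edgeR with library totals or with no filter. Without lean 6, edgeR with the groups alone gave -0.66 there (adjusted p = 0.194).

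Markers of blood cells, in which these clusters are abundant, were set beside the members. The 4 leukocyte miRNAs miR-142-3p, miR-142-5p, miR-150-5p and miR-223-3p summed to 740 to 1517 CPM in colesevelam, 1031 to 1524 CPM in vehicle and 1569 to 3742 CPM in lean livers, so that both obese groups lay below the lean group. miR-142-5p was lower in colesevelam (log2 fold change -1.18, edgeR adjusted p = 0.0236) and in vehicle livers (-1.27, edgeR adjusted p = 0.0328), each against lean livers, while colesevelam against vehicle gave 0.09 (edgeR adjusted p = 0.936). miR-150-5p was lower in colesevelam than in vehicle (-1.27, edgeR adjusted p = 0.0340) and than in lean livers (-1.27, edgeR adjusted p = 0.0179), and vehicle against lean gave -0.00 (edgeR adjusted p = 0.999). miR-142-3p and miR-223-3p were at 0 in some obese libraries and too low to test. The 3 erythroid miRNAs in the table, miR-451-5p, miR-144-3p and miR-144-5p, summed to 56.6 to 449 CPM in colesevelam, 106 to 338 CPM in vehicle and 196 to 511 CPM in lean livers, with miR-144-3p and miR-144-5p at 0 in some obese libraries. The erythroid miR-451-5p was called in no comparison, at -0.04 for colesevelam against vehicle, -0.59 for vehicle against lean and -0.63 for colesevelam against lean (edgeR adjusted p = 0.981, 0.490 and 0.295). Against lean livers, miR-19b-3p stood at -1.32 (log2 fold change) in colesevelam and -0.77 in vehicle livers, and miR-92a-3p at -0.44 and -0.02. miR-25-3p stood at 0.39 and 0.32 and miR-93-5p at 0.02 and 0.40, with none of these members called by edgeR. The r with the GC slope was -0.73 for miR-142-5p, 0.69 for miR-150-5p and -0.60 for miR-451-5p. The permutation test's adjusted p was 0.00681, 0.00553 and 0.0293 in that order. The part of these cells in the members' values was not tested.

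The authors' deposited table gives other values for the comparisons with lean livers. For vehicle against lean, the log2 fold changes in the authors' deposited table are -2.25 for miR-92a-3p, -2.94 for miR-19b-3p, -2.15 for miR-25-3p and -2.07 for miR-93-5p, with adjusted p-values from 0.000104 to 0.000949. For colesevelam against lean, the authors' deposited table gives -3.01, -3.94, -2.41 and -2.81 in the same order, and for colesevelam against vehicle -0.76, -0.99, -0.26 and -0.74, none of the last with an adjusted p under 0.05. The size factors behind those values, recovered from the deposited mean scaled counts, ran from 0.752 to 1.46 while the library totals ran from 32936 to 881452. With those factors in the edgeR fit, all 4 members were called lower against lean in both obese groups. The median over all tested miRNAs was then -2.38 for vehicle against lean, where 110 of 112 were called, and -2.76 for colesevelam against lean, where 109 of 112 were called. Beside the median of -2.38 for vehicle against lean, miR-92a-3p stood at -2.25, miR-19b-3p at -2.93, miR-25-3p at -2.15 and miR-93-5p at -2.07. Beside the median of -2.76 for colesevelam against lean, they stood at -3.01, -3.92, -2.40 and -2.80 in the same order.

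The other products of these clusters had far fewer counts than the 4 members. Of 14 listed mature miRNAs of the miR-17-92 cluster, 12 were in the table, and only miR-92a-3p and miR-19b-3p were tested. miR-17-5p, which shares its seed with miR-93-5p, had 191 counts over all 18 libraries, miR-20a-5p 169 and miR-19a-3p 120, which differs from miR-19b-3p by C11U alone. miR-92a-1-5p, the opposite arm of the chromosome 15 precursor, had 115 counts beside the 86631 of miR-92a-3p. Of 9 listed mature miRNAs of the X-linked miR-106a-363 cluster, 3 were in the table, with 16 counts of miR-363-3p and 2 of miR-20b-5p among them, and none was tested.

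All 6 listed mature miRNAs of the miR-106b-25 cluster were in the table. Beside miR-25-3p (4125 counts) and miR-93-5p (992), miR-106b-3p had 115 and miR-106b-5p 111 counts, while the opposite arms miR-93-3p and miR-25-5p had 11 and 2. The summed level of this cluster lay between 1528 and 2797 CPM in colesevelam, 2029 and 3109 CPM in vehicle, and 1326 and 2093 CPM in lean livers, with overlap between all 3 groups. Outside the clusters, the seed AUUGCAC of miR-92a-3p and miR-25-3p is carried by miR-92b-3p and miR-32-5p, with 85 and 31 counts. These rarer miRNAs failed the filter on low counts and were not tested.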

How the data were processed

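The data were 18 small RNA libraries of liver, 6 per group. Per the labels' protocols, RNA came from frozen liver with a Norgen kit and libraries were made with an Illumina TruSeq RNA kit. Bowtie 1.1.2 and DESeq2 1.18.1 are named in the submitters' processing notes; settings and genome build are not stated there. The authors deposited 1 table of 401 miRNAs with estimated counts (297 values in 42 miRNAs are not whole, and were rounded), mean scaled counts for each comparison, log2 fold changes and p-values.

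Rows passing filterByExpr (minimum count 10, minimum total 15), 112 in all, were tested with edgeR 4.0.16 (R 4.3.3, TMM factors 0.815 to 1.19, robust quasi-likelihood F test, 1 fit over all libraries, Benjamini-Hochberg adjustment). log2 CPM used a prior count of 2. The GC slope of each library came from the deposited sequences; its correlations used 100000 permutations within groups, two-sided, adjusted over 112. Alternatives were other scalings (DESeq2 1.42.0 size factors, upper quartile, library totals, the authors' factors), DESeq2's Wald test, limma-voom (limma 3.58.1), other filters, a replicate block, the GC slope as a covariate and each library left out. The authors' factors were recovered from the deposited means, of which 491 of 492 fitted within 0.1%. The scripts were checked on simulated counts. The members named, the lists and the tests were chosen with earlier results of these data known. Genes named are the 4 members, their clusters, the 3 miRNAs most like each, and cell type markers, plus miR-340-5p and miR-27a-3p, chosen after their values were seen.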

Additional observations from a re-analysis of the deposited data

Results flagged for a closer look

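In the lean group, miR-19b-3p had 1297 CPM in lean 6, and the nearest lean library had 462 CPM. The gap to the nearest library was 0.711 of the group's range in CPM, above Dixon's critical value of 0.625 for 6 libraries. On the log2 scale, lean 6 stood at 10.36, the next highest lean library at 8.89 and the lowest at 7.09. In the vehicle group, miR-25-3p had 2203 CPM in vehicle 3, and the nearest vehicle library had 1738 CPM, a gap of 0.674 of the range. These are 2 of 12 groups of libraries tested in this way, and chance gives about 1 in 20. The gaps were tested on CPM and not on the log2 scale.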

How the results depend on the processing

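In this text a value is a log2 fold change unless called a count or an r. For colesevelam against vehicle, miR-92a-3p turned to 0.04 with the GC slope as covariate, 0.12 with a replicate block as well, and 0.00 with the covariate and lean 6 left out. miR-19b-3p was called with the replicate block and GC slope (-1.36, edgeR adjusted p = 0.00979) and with the GC slope without lean 6 (-1.0), so 1 member was called in each. Of all 112 tested miRNAs, these settings called 23 and 29. miR-25-3p turned to -0.06 with library totals and -0.26 with the authors' factors.

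For vehicle against lean, miR-92a-3p was 0.02 with library totals, 0.15 with limma-voom, 0.37 with libraries of 1 label number summed, 0.01 with the replicate block, and -0.51 (called) with the GC slope without lean 6. miR-19b-3p turned to 0.27 with the replicate block and GC slope and 0.26 with the GC slope without lean 6. With the authors' factors, miR-92a-3p (-2.25), miR-19b-3p (-2.93), miR-25-3p (-2.15) and miR-93-5p (-2.07) were all called, 4 members, and with the GC slope without lean 6, 1 was.

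For colesevelam against lean, the authors' factors gave -3.01 for miR-92a-3p, -3.92 for miR-19b-3p, -2.40 for miR-25-3p and -2.80 for miR-93-5p, 4 members called. miR-19b-3p was the 1 member called with library totals (-1.34), DESeq2's Wald test (-1.36), no filter (-1.35), the GC slope (-1.22) and the replicate block with GC slope (-1.09). Among all miRNAs, library totals called 29 of 112, DESeq2's Wald test 33 of 112 and no filter 29 of 401. The GC slope called 43 of 112, and the replicate block with GC slope 48 of 112. With the GC slope without lean 6, miR-92a-3p (-0.50) and miR-19b-3p (-0.74) were called, 2 members. miR-93-5p turned to -0.01 with DESeq2 size factors, -0.03 with library totals, -0.02 with DESeq2's Wald test and with label numbers summed, -0.06 with no filter, -0.05 with only the 2 groups in the fit, and -0.10 with the GC slope without lean 6. Alone, the replicate block called no member and moved the count of all miRNAs called to 7 for colesevelam against vehicle, 6 for vehicle against lean and 20 for colesevelam against lean. Libraries of different groups with the same sample number correlated at -0.58 to 0.56, over 0.1 in 6 of 18 pairs, and 8 of 36 library comparisons were best with their own number, so the numbers were not taken as pairs. In the same measure, libraries of a group that share a label number correlated at -0.65 to -0.09 over 5 pairs. Whether such libraries come from the same rat was not tested.

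Leaving out 1 library at a time, miR-92a-3p for vehicle against lean ran from -0.21 to 0.17, miR-19b-3p for colesevelam against lean from -1.55 to -0.66 (edgeR adjusted p 0.0199 to 0.194), miR-93-5p for colesevelam against lean from -0.11 to 0.14, and 0 to 1 members were called for colesevelam against lean. Without vehicle 3, miR-93-5p was -0.13 for colesevelam against vehicle and 0.16 for vehicle against lean, and miR-25-3p was 0.21 and 0.18 in the same order, none called.

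The r with the GC slope missed the threshold for miR-92a-3p within lean (0.88) and for miR-19b-3p within colesevelam (-0.65) and lean (-0.81). For miR-25-3p it turned to -0.03 within vehicle and within lean and to -0.04 without lean 6, and library totals gave 0.41. For miR-93-5p it passed with library totals (0.63) and with depth regressed out (0.61).

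Over all miRNAs, the count called for colesevelam against vehicle ran from 2 (authors' factors) to 23 (replicate block with GC slope) beside 12 as reported; it was 7 without vehicle 6, and 29 with the GC slope without lean 6; for vehicle against lean it was 16 with the GC slope and 24 with lean 6 also left out, beside 7. For colesevelam against lean it was 43 and 49, beside 24. As reported, 8 calls were higher and 4 lower for colesevelam against vehicle, 4 and 3 for vehicle against lean, and 13 and 11 for colesevelam against lean. With library totals these were 7 and 7, 4 and 3, and 11 and 18, with upper-quartile factors 6 and 0, 3 and 3, and 12 and 7, and with the authors' factors 2 and 0, 1 and 109, and 1 and 108. Library totals moved the median of all miRNAs to -0.12 (colesevelam against vehicle) or -0.14 (against lean). The causes were not tested. The obese libraries hold only 4 to 56 counts of miR-19b-3p, which limits its precision. The settings chosen after the data were seen are those without lean 6 together with the GC slope, and the correlations and SDs without lean 6.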
